A study of Mus musculus with 47 samples.

Results

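Long non-coding RNA genes give rise to RNAs that are often spliced and carry no long open reading frame. Some of these RNAs remain in the nucleus, some are precursors from which microRNAs or small nucleolar RNAs are cut, and many are transcribed from the start or the body of a developmental transcription factor gene, on the opposite strand. Cranial neural crest cells leave the dorsal neural tube and fill the frontonasal process and the pharyngeal arches, where Hox genes mark the second arch and Dlx genes mark the arches along their proximal to distal axis. Non-coding RNAs of the Hox and Dlx clusters are transcribed within these same domains, in which Polycomb complexes keep the genes of other positions silent.

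The genes described here are the 385 expressed long non-coding RNA genes of a deposited count table, out of 3370 genes of the lincRNA and antisense classes outside chromosomes X, Y and M. They were chosen by their measured level: a member reached a group mean of 10 or more CPM in at least 1 of 16 groups, where CPM are the counts of a gene scaled to a common library total, taken without chromosome M genes. The imprinted RNAs H19, Meg3, Rian, Mirg, Airn and Nespas were left out by symbol or identifier. By the classes of the count table, the members comprise 266 lincRNA and 119 antisense genes. The GENCODE M21 annotation classes 5 members as protein-coding, 1 as a small nucleolar RNA and a few as pseudogenes. The threshold was reached by 125 members in all 16 groups, by 227 in 2 to 15 groups and by 33 in a single group. The members just inside the threshold were Gm11250, Gm10658, D130020L05Rik, 4731419I09Rik and Gm26693, at 10.0 to 10.1 CPM in their highest group, and the genes just outside it were AL670673.1, C530005A16Rik, 6030442K20Rik, Gm26856 and Gm16755, at 9.89 to 9.96 CPM. All later levels are CPM of the total without chromosome M, scaled by trimmed mean of M values factors.

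The 47 RNA-seq libraries came from mouse cranial neural crest cells that were dissected, dissociated and sorted by flow cytometry, and that are described across genotype, position and stage. The Ezh2cKO groups (conditional knockout of Ezh2, the catalytic subunit of a Polycomb repressive complex) were taken at E10.5 from the frontonasal process (FNP), maxillary process (Mx), mandibular process (Md) and second pharyngeal arch (PA2), with 3 libraries each. The HoxA2OE group (Hoxa2 overexpression) came from Md at E10.5, and the Hoxa2TempMut group (temporal Hoxa2 knockout) from PA2 at E11.5, with 3 libraries each. A group labelled Control came from PA2 at E11.5 (3 libraries). Wild-type (WT) crest came from the same 4 subpopulations at E11.5 and at E10.5, with 3 libraries each except 2 for Mx at E10.5, and from crest progenitors at E8.5 (3 libraries). The labels used here name neither the Cre driver or promoter behind these alleles, nor what the Control animals carry, nor the strain, nor whether libraries of a group came from separate embryos, so the p-values below measure the spread between these libraries.

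A few sequences are shown first because several of the members that changed between stages are microRNA precursors, and because 3 members stood lower in Hoxa2TempMut. In the RefSeq hairpin table used here (GRCm38.p6), 20 hairpins lay inside 12 of the 385 members on their own strand. Mir17hg (chr14:115042879-115046727, plus strand) carries a cluster known for its role in cell proliferation; its mature microRNAs fall into seed groups, with the seed, bases 2 to 8, in capitals.
miR-17-5p: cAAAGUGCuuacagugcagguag
miR-20a-5p: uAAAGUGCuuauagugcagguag
miR-18a-5p: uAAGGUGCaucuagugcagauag
miR-19a-3p: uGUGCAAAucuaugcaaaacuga
miR-19b-3p: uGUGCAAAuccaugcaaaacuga
miR-92a-3p: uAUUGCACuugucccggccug
Dnm3os (chr1:162217623-162225550, plus strand, inside the oppositely transcribed Dnm3) holds microRNAs known from mesenchyme and skeletal development, again with the seed in capitals.
miR-199a-5p: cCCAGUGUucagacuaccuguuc
miR-199a-3p: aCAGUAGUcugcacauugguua
miR-214-3p: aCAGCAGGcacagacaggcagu
3110039I08Rik (named 2610203C20Rik in the count table; chr9:41580741-41617772, plus strand) holds a copy of the microRNA whose relative lin-4 times larval stages in worms.
miR-125b-5p: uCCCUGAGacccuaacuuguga
1700016P03Rik (chr11:75172560-75177633, plus strand) holds a pair of microRNAs that share a seed and are best known from neurons.
miR-132-3p: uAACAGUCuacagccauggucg
miR-212-3p: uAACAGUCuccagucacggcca

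The promoters of the 3 members lower in Hoxa2TempMut are printed from 250 bases before to 50 bases after the RefSeq start, 5′ to 3′ on the transcribed strand, with CpG dinucleotides in capitals. RefSeq promoters of GRCm38.p6 were matched for 149 members, whose median was 14 CpG dinucleotides per 300 bases, against 7 over all 32851 promoters of that table. The members were chosen by level and their repeated promoters were dropped. The promoters of that table were all kept, whatever the level of the gene, so these medians describe unlike sets.
3110099E03Rik, chr2:115512152-115512451, minus strand: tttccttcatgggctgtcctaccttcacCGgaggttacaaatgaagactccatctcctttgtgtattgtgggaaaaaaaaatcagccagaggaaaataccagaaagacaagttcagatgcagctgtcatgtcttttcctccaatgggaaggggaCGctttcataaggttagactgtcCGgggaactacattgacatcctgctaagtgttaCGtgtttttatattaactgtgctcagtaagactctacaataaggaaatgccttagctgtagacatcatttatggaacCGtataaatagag
G630016G05Rik, chr2:116066975-116067274, plus strand: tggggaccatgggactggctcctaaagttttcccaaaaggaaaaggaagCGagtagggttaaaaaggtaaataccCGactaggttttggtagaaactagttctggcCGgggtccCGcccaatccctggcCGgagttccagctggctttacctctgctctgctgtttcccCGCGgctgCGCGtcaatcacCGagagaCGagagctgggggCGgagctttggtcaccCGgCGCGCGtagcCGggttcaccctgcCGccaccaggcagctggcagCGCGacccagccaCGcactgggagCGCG
Gm20554, chr13:72628515-72628814, minus strand: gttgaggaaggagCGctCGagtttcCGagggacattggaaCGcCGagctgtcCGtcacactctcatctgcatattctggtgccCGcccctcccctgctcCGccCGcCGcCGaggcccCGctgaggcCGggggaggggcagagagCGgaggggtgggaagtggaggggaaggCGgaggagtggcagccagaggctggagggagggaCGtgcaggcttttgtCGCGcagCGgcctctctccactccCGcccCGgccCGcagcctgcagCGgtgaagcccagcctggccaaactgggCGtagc
The RefSeq start of 3110099E03Rik lies inside the gene as counted, away from its 5′ end. The RefSeq starts of G630016G05Rik and Gm20554 are those of the counted genes, so the windows are unlike. The 3110099E03Rik window held 5 CpG dinucleotides, that of G630016G05Rik 23 and that of Gm20554 24. Searched on both strands for TGACAG, the core bound by Meis factors, the first held 1 match and the others none, and 19.2% of all promoters hold one. TGATNNAT, a core bound by Hox and Pbx proteins together, was in none of these windows and is in 8.85% of all promoters. These matches describe letters in the windows only.

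Library totals were 18.8 to 49.8 M counts, of which chromosome M took 11.46% to 45.9%, and the members together took 1.23% to 2.63% of the remaining counts. Ezh2 was at 149.6 to 205 CPM in the 12 Ezh2cKO libraries, against 451 to 524 CPM in the 11 WT libraries at E10.5. Hoxa2 was at 128 to 163 CPM in HoxA2OE, against 0.322 to 0.389 CPM in Md WT, and at 231 to 256 CPM in Hoxa2TempMut, against 350 to 353 CPM in Control (log2 fold change of −0.53 ± 0.21, adjusted p = 0.52) and 239 to 259 CPM in PA2 WT at E11.5. The Hoxa2TempMut libraries thus lay below Control without overlap, but the difference did not pass the test and they met the range of WT. The summed level of 13 crest mesenchyme markers was 1649 to 4185 CPM after E8.5 and 680 to 811 CPM in the E8.5 progenitors. The 3 HoxA2OE libraries stood apart, with the largest totals (45.6 to 49.8 M counts) and scaling factors of 0.688 to 0.821 where the other groups had 0.893 to 1.11. In sorted bulk cells, fewer cells of a type and less RNA per cell cannot be told apart.

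The libraries were unstranded, so counts of a member and of a gene overlapping it on the other strand cannot be told apart where their exons overlap. Of the members, 298 overlapped a protein-coding gene of the table and 87 did not. In the GENCODE M21 annotation, which held 368 of them, 245 shared some exonic base with a coding exon, 78 shared more than 50% of their exonic bases, and 123 shared none. The clearest case was Gm26778 (AC102815.1 in the table; chr14:102978220-102982528, plus strand), all of whose exonic bases lie within a coding exon of Kctd12 on the other strand. The table gave 524585 counts to Gm26778 and 524573 to Kctd12 over all libraries, with no library differing by more than 0.0354%. The values of Gm26778 below are thus not told apart from those of Kctd12.

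Malat1, which is retained in nuclear speckles, had the highest mean over the 16 groups (5845 CPM), followed by Gm26825 (1069 CPM), Tug1 (617 CPM), 3110039I08Rik (608 CPM) and 1700020I14Rik (483 CPM). Per kilobase of exon these 5 stood at 837 CPM for Malat1, 528 for Gm26825, 92.4 for Tug1, 59.5 for 3110039I08Rik and 58.1 for 1700020I14Rik. The members that varied least between groups were Rsf1os2, Gm9917, Gm14471, Ube4bos1 and 2700016F22Rik; Rsf1os2 had an SD of 0.117 over 16 log2 group means. The members that varied most were 3110099E03Rik (SD 4.35), Hoxaas2 (3.76), Gm11538 (3.39), Hoxb3os (3.33) and Dlx4os (3.19). Of these 5, 4 lie in or beside a Hox or Dlx cluster. By the CPM used to choose members, without scaling factors, the E8.5 progenitors were the highest group for 52 members, Mx at E11.5 for 39 and the Control group for 37.

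The members resembled the nearest coding gene to different degrees. Over the 16 log2 group means, which come from the same libraries, Pearson's r between a member and that gene had a median of 0.64, with 152 of 385 members at 0.8 or more and 59 below 0. The median was 0.75 for the 298 members that overlap the coding gene, with which they can share reads, and 0.33 for the 87 that do not. Of these 87, 10 have an exonic base in a coding exon of GENCODE M21, Gm26778 among them, and the median was also 0.33 for the 68 annotated there without one. Among members whose group means had an SD of 1 or more on the log2 scale, the median r was 0.91 for the 23 that do not overlap and 0.94 for the 43 that do. Examples with r of 0.99 were G630016G05Rik with Meis2, 5033428I22Rik with Hand2 and Gm11538 with Hoxb13, while 2610307P16Rik had an r of −0.25 with Sox4.

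**Figure D1:**
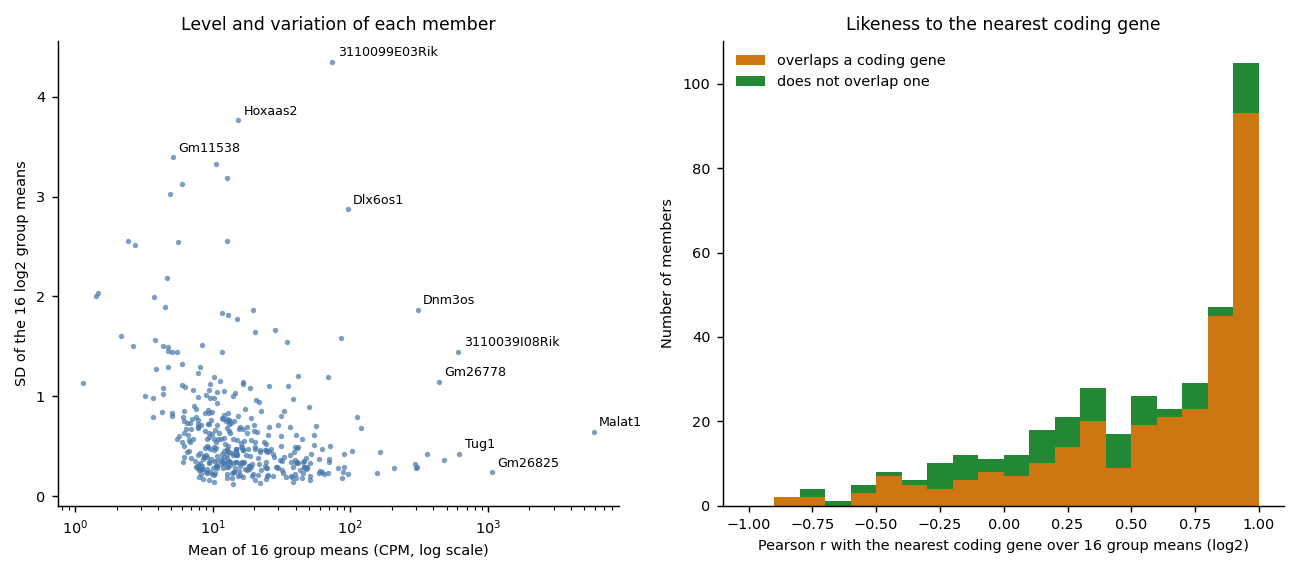
Left, each of the 385 members by its mean of 16 group means (CPM, log scale) and the SD of its 16 log2 group means; right, the number of members by Pearson's r with the nearest coding gene, in orange where the member overlaps it and in green where it does not. Malat1 stands at the right at 5845 CPM, 3110099E03Rik at the top with an SD of 4.35, and 152 members have an r of 0.8 or more.

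At E10.5 most of the long non-coding RNAs stood at a different level than in the E8.5 progenitors. Of 370 members open to a test, that is, not counted as members through one side of the comparison alone, 281 were called with edgeR's quasi-likelihood test at a Benjamini-Hochberg adjusted p under 0.05: 211 higher and 70 lower at E10.5. That was 75.9%, where the same test called 68.1% of all 20594 genes tested, and the median log2 fold change was 0.47 over these members and −0.01 over all genes. Of these 281, 154 differed by more than 2-fold (41.6% of the open members, where 31.3% of all genes were called and exceeded 2-fold). Members were chosen for reaching 10 CPM in any of 16 groups, of which only the progenitor group was at E8.5. A gene that reached it at E10.5 and in another group after E8.5 counted as open. The choice itself thus favours members higher at E10.5, and all genes were not chosen by this threshold. Its part in the counts and the median was not tested. The progenitors also differed in markers of other cells: 10 neural tube markers summed to 27.1 to 41.3 CPM in E10.5 WT and to 505 to 621 CPM in the progenitors, 9 erythroid markers to 32.6 to 570.3 CPM in E10.5 WT and 814 to 1292 CPM in the progenitors, 10 endothelium markers to 6.47 to 14.6 CPM in E10.5 WT and 218 to 233 CPM in the progenitors, and 10 epithelium markers to 3.83 to 24.04 CPM in E10.5 WT and 221 to 248 CPM in the progenitors. In the progenitors none of the neural tube, endothelium or epithelium markers was at 0. The part of these cells in the results was not tested.

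Abundant microRNA precursors changed in both directions. Dnm3os was at 199 to 378 CPM in the 11 E10.5 WT libraries, against 1.42, 1.82 and 2.64 CPM in the E8.5 progenitors. No library of the later stage came near the progenitors, and the values differed (log2 fold change of 7.05 ± 0.22, adjusted p = 7.9e-28, with its standard error, as in all later cases). The precursor of miR-125b, 3110039I08Rik, was likewise low in the progenitors, with 370.4 to 613 CPM at E10.5, against 19.2, 9.74 and 12.4 CPM at E8.5 (log2 fold change of 5.10 ± 0.18, adjusted p = 1.3e-25). Mir17hg went the other way, at 57.04 to 120.3 CPM at E10.5, against 451, 272 and 327 CPM at E8.5 (log2 fold change of −1.82 ± 0.15, adjusted p = 5.8e-14). Of the 4 members in a list of microRNA host genes, 3 were higher and 1 was lower at E10.5. The mature microRNAs were not measured.

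A pair of neighbouring RNAs inside Bcl11a, a zinc finger repressor gene, were near 0 at E8.5. Gm12064 was at 11.2 to 17.5 CPM at E10.5 and had no count in any progenitor library, which makes it at least 517-fold higher against a floor of 3 counts over the progenitor group. Its companion 4930538E20Rik averaged 13.4 ± 2.05 CPM (SD, n = 11) at E10.5 and 0.0285 ± 0.00273 CPM (SD, n = 3) at E8.5. Gm16564, inside Kif26b, was at 21.5 to 69.96 CPM at E10.5, against 0.411, 0.599 and 0.533 CPM at E8.5 (log2 fold change of 5.92 ± 0.19, adjusted p = 2e-27). In the other direction AC125204.2, which holds the miR-1251 hairpin, was at 0 to 1.17 CPM at E10.5, against 53.2, 42.95 and 55.02 CPM in the progenitors (log2 fold change of −7.85 ± 0.23, adjusted p = 7e-28). A further 15 members reached 10 CPM on one side only and had to differ. Among these, Six3os1, antisense to the eye and forebrain regulator Six3, was at 0 to 5.48 CPM at E10.5, against 26.99, 18.5 and 30.03 CPM at E8.5. C130021I20Rik, 682 bp from Lmx1b, was at 0 to 0.461 CPM at E10.5, against 7.85, 13.5 and 13.1 CPM at E8.5.

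The abundant nuclear RNAs split by stage: of 4 members in the list, 2 were higher and 2 lower at E10.5. Malat1 was at 4604 to 6345 CPM at E10.5, against 1752, 1479 and 1536 CPM at E8.5 (log2 fold change of 1.79 ± 0.15, adjusted p = 3.9e-14). Tug1, a conserved RNA found in nucleus and cytoplasm, was at 385 to 547 CPM at E10.5, against 887, 735 and 729 CPM at E8.5 (log2 fold change of −0.73 ± 0.07, adjusted p = 7.6e-12). Pvt1, transcribed beside Myc, was at 8.10 to 20.2 CPM at E10.5 and 3.54, 3.29 and 4.10 CPM at E8.5 (log2 fold change of 1.78 ± 0.14, adjusted p = 3.2e-14); it was also the 1 member among 4 listed p53-linked RNAs. Miat, a nuclear RNA of neurons and other cells, was lower on average at E10.5 (log2 fold change of −3.14 ± 0.16, adjusted p = 3.8e-20), but its level depended on the subpopulation, as given below. Of the 4 small nucleolar RNA host genes among the members, 2 rose and 1 fell. Snhg12 was at 28.9 to 40.9 CPM at E10.5, against 52.3, 67.1 and 75.96 CPM at E8.5 (log2 fold change of −0.92 ± 0.11, adjusted p = 6.3e-10). Snhg18 was at 9.08 to 13.7 CPM at E10.5, against 5.92, 5.28 and 4.88 CPM at E8.5 (log2 fold change of 1.08 ± 0.15, adjusted p = 6.9e-08).

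**Figure D2:**
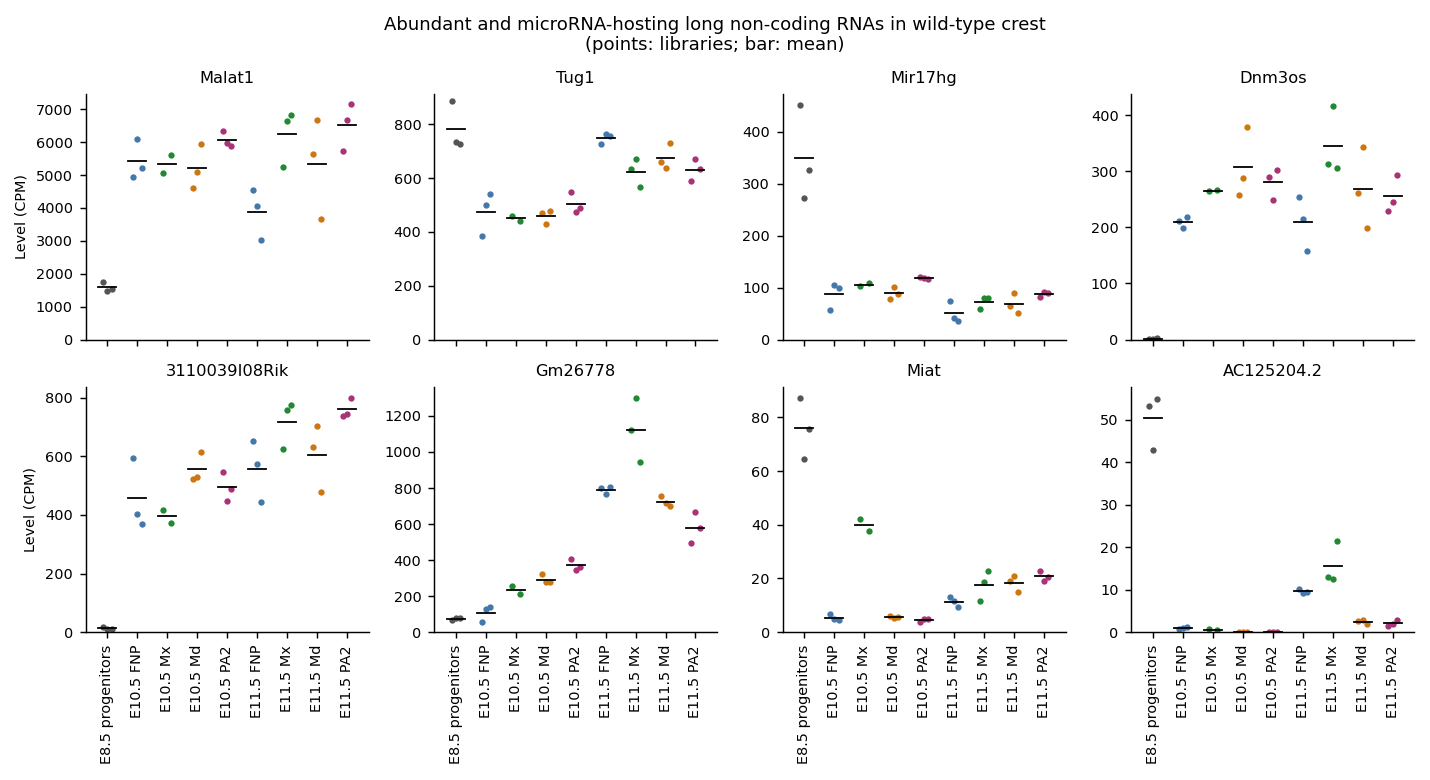
Level (CPM, linear axes from 0) of 8 members in WT crest, by stage (E8.5, E10.5, E11.5) and subpopulation; points are libraries and bars are group means. Dnm3os and 3110039I08Rik are near the axis in the E8.5 progenitors, Mir17hg and AC125204.2 are highest there, and Miat stands out in the E8.5 progenitors and in Mx at E10.5.

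Between E10.5 and E11.5, over the same 4 WT subpopulations, 261 of 370 open members were called, 117 higher and 144 lower at E11.5. That was 70.5% of the members, where 63.6% of all genes were called (6939 higher and 6164 lower). Of these 261, 43 differed by more than 2-fold (11.6% of the open members, against 14.6% of all genes). The E10.5 libraries serve in both stage comparisons, so the 2 sets of values are not independent. The largest rise was that of 2700069I18Rik, antisense within Zfhx4, at 12.1 to 37.4 CPM at E11.5, against 3.04 to 12.2 CPM at E10.5 (log2 fold change of 1.99 ± 0.12, adjusted p = 2.5e-18). The ranges overlapped only between 1 Md library at E11.5 and 1 FNP library at E10.5. Gm26778, with nearly the same counts as Kctd12, was at 497 to 1299.5 CPM at E11.5, against 56.7 to 406 CPM at E10.5 (log2 fold change of 1.78 ± 0.10, adjusted p = 7.4e-19), without overlap. Beside Pcdh10, a protocadherin gene, 2610316D01Rik averaged 16.9 ± 5.47 CPM (SD, n = 12) at E11.5 and 5.72 ± 2.47 CPM (SD, n = 11) at E10.5.

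The largest fall at E11.5 was that of the miR-132 and miR-212 host 1700016P03Rik, at 0.858 to 2.18 CPM at E11.5, against 2.23 to 14.3 CPM at E10.5 (log2 fold change of −2.63 ± 0.16, adjusted p = 6.9e-18). At E10.5 it was already low in FNP, with 3.08, 2.23 and 3.29 CPM, and at 11.3 to 14.3 CPM elsewhere; 74.3% of its exonic bases lie inside coding exons. Foxd2os, divergent from the forkhead gene Foxd2, averaged 4.25 ± 2.48 CPM (SD, n = 12) at E11.5 and 15.1 ± 6.44 CPM (SD, n = 11) at E10.5 (log2 fold change of −1.86 ± 0.10, adjusted p = 2.3e-19). Gm8327, overlapping the orphan nuclear receptor gene Nr2f1, averaged 3.27 ± 1.76 CPM (SD, n = 12) at E11.5 and 11.45 ± 5.46 CPM (SD, n = 11) at E10.5 (log2 fold change of −1.86 ± 0.11, adjusted p = 1.2e-18). Gm26789, inside Herc4, averaged 8.20 ± 2.54 CPM (SD, n = 12) at E11.5 and 22.4 ± 4.47 CPM (SD, n = 11) at E10.5. Of the small nucleolar RNA hosts 2 rose and 1 fell, the fall being that of Snhg17, at 17.8 to 27.9 CPM at E11.5, against 32.2 to 49.9 CPM at E10.5 (log2 fold change of −0.85 ± 0.06, adjusted p = 6.4e-16). Of the abundant nuclear RNAs 2 rose and 1 fell, the fall being that of Pvt1 (log2 fold change of −0.98 ± 0.08, adjusted p = 2.5e-13), and of the microRNA hosts 1 rose and 2 fell. A further 15 members had to differ between these stages and were not tested. The change between stages differed among the 4 subpopulations for 90 of 385 members (23.4%) by an F test across the 4 changes, which called 15.5% of all genes. That count took every member, also those that reached 10 CPM through the compared groups alone. The 2 shares thus describe unlike sets.

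Position separated members that lie beside patterning genes. In each comparison of 1 subpopulation with the mean of the other 3 on the log2 scale, the 4 contrasts at a stage share their libraries. At E10.5, 128 of 382 open members were called in FNP (33.5%, against 27.2% of all genes), 36 of 381 in Mx (9.45%, against 7.15%), 46 of 381 in Md (12.1%, against 6.73%) and 61 of 382 in PA2 (16%, against 10.4%). At E11.5 the counts were 152 of 378 in FNP (40.2%, against 24.3%), 79 of 378 in Mx (20.9%, against 11.2%), 36 of 376 in Md (9.57%, against 7.04%) and 89 of 375 in PA2 (23.7%, against 17.4%). In FNP at E11.5 the calls were mostly lower, 119 of 152, where all genes had 2453 higher and 2552 lower. Without the FNP library of replicate 3 the share called there was 25.1%. Without the Mx library of replicate 1 the share called in Mx at E10.5 was 5.25%, and without the Md library of replicate 1 or 3 the share in Md at E10.5 was 7.35% or 7.87%. Without the members that overlap a coding gene the share at E10.5 was 16.09% for Mx, 20.69% for Md and 26.44% for PA2, and at E11.5 31.4% for Mx and 16.47% for Md. Of 12 members in a list of RNAs beside developmental regulators, 9 were higher and 2 lower in PA2 at E10.5, and 3 were higher and 5 lower in FNP.

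The RNAs of the Hox clusters marked PA2, the arch that carries the Hox code among these subpopulations. Hoxaas2 (5730446D14Rik in the table; chr6:52165674-52169564, plus strand, antisense to Hoxa3) was at 17.1, 19.8 and 18.9 CPM in PA2 at E10.5, with 1 count in all over the 8 libraries of the other subpopulations. Hotairm1 (Gm15051 in the table; plus strand, in the Hoxa cluster) was at 14.9, 15.9 and 12.9 CPM in PA2 and 0 to 0.0691 CPM elsewhere at E10.5. Hoxb3os (chr11:96345481-96354691, minus strand) overlaps Hoxb2 and Hoxb3, with 76.2% of its exonic bases in coding exons, and was at 17.4, 19.8 and 19.6 CPM in PA2 and 0 to 0.277 CPM elsewhere. For all of these RNAs PA2 lay above every library of the other subpopulations, also at E11.5, when Hoxaas2 was at 43.5, 35.1 and 35.5 CPM in PA2, Hotairm1 at 11.6, 9.90 and 11.2 CPM and Hoxb3os at 23.8, 22 and 21.8 CPM. The r with an overlapping Hox gene over the 16 groups was 0.98 for Hoxaas2 with Hoxa3 and 0.97 for Hoxb3os with Hoxb3. A PA2 member outside the clusters was 3110099E03Rik (chr2:115493513-115527744, minus strand), 335 kb from the homeobox gene Meis2 on the same strand, with an r of 0.86; the nearest coding gene is BC052040, with an r of 0.54. 3110099E03Rik was at 179, 151 and 166 CPM in PA2, 16.2, 14.95 and 15.7 CPM in Md and 0 to 1.10 CPM in FNP and Mx (log2 fold change of 7.58 ± 0.17, adjusted p = 4.3e-31 for PA2). Gm16141, antisense to Meis1, reached 10 CPM through PA2 at E11.5 alone, with 11.9, 10.8 and 13.97 CPM there and 0.42 to 2.03 CPM elsewhere, and was not tested.

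The RNAs of the Dlx clusters were graded from FNP to PA2. Dlx6os1 (Dlx6as1 in the table; chr6:6820189-6869787, minus strand), antisense to the ventral arch regulator Dlx6, was at 0.923, 0.48 and 1.13 CPM in FNP, 4.95 and 7.01 CPM in Mx, 93.3, 92.8 and 99.1 CPM in Md and 219, 181 and 189.6 CPM in PA2 at E10.5. Each step lay outside the spread of the libraries. Dlx1as (chr2:71516454-71537891, minus strand), antisense to Dlx1, was at 1.90, 1.57 and 1.13 CPM in FNP, 22.8 and 24.5 CPM in Mx, 27.6, 24.4 and 29.5 CPM in Md and 42.1, 36.5 and 44.1 CPM in PA2. Mx and Md overlapped, and FNP was far below (log2 fold change of −4.29 ± 0.17, adjusted p = 4e-23). Dlx4os (A730090H04Rik in the table; chr11:95145053-95159047, plus strand), antisense to Dlx4, had no count in FNP, 0.104 and 0.0816 CPM in Mx, 14.3, 13.7 and 15.3 CPM in Md and 30.2, 29.3 and 32.3 CPM in PA2. Mx was thus close to 0 as well, and Md and PA2 lay far above both.

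Each of the other processes had its own RNA beside a regulator. In Md, 5033428I22Rik (AC119275.1 in the table; chr8:57332118-57340682, plus strand), 7601 bp from the mandibular regulator Hand2, was at 24.1, 25.2 and 20.3 CPM, against 13.8, 12.2 and 12.7 CPM in PA2 and 0 to 0.208 CPM in FNP and Mx at E10.5. In FNP, Gm17028 (chr10:103029479-103030344, minus strand), 428 bp from the frontonasal homeobox gene Alx1, was at 11.4, 13.8 and 13.6 CPM, against 0 to 2.39 CPM elsewhere (log2 fold change of 6.22 ± 0.30). The group mean of Gm17028 passed 10 CPM in FNP at both stages, so its FNP values helped to choose it and no p is given. For Mx the RNA was Foxl2os (AC120148.1 in the table, chr9:98949155-98955310, minus strand), 297 bp from the forkhead gene Foxl2. Foxl2os was at 40 and 42.7 CPM in Mx, against 0 to 2.56 CPM elsewhere (log2 fold change of 6.24 ± 0.27). Its group mean likewise passed 10 CPM in Mx at both stages, so its Mx values helped to choose it. No p is given for this comparison. The order held at E11.5, with 65.7, 76.3 and 72.1 CPM of Foxl2os in Mx, 10.49, 11.1 and 10.2 CPM of Gm17028 in FNP and 11.9, 12.3 and 9.36 CPM of 5033428I22Rik in Md, each above every library of the other subpopulations. Igf2os, antisense to the growth factor gene Igf2, was at 39.6, 38.6 and 36.6 CPM in Md and 21.5, 22.4 and 22.5 CPM in PA2, with 5.38 to 6.78 CPM in FNP and Mx (log2 fold change of 2.04 ± 0.10, adjusted p = 1.4e-19 for Md).

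Some positional patterns were not the same at the later stage. Fendrr (chr8:121054882-121083032, minus strand), divergent from Foxf1, was at 10.03, 10.9 and 17.96 CPM in Mx at E11.5, within the range of 9.36 to 24.2 CPM over FNP and Md, and at 1.14, 1.85 and 1.43 CPM in PA2. At E10.5 it was at 26.04, 22.4 and 18.1 CPM in FNP, 3.84 and 3.14 CPM in Mx, 28.8, 29.4 and 26.5 CPM in Md and 5.26, 7.66 and 5.50 CPM in PA2, so that Mx and PA2 were both low. Emx2os, 55 bp from the homeobox gene Emx2, was highest in Mx at E11.5, with 58.9, 73.7 and 61.6 CPM there and 30.2, 30.5 and 29.3 CPM in PA2. At E10.5 PA2 was highest, with 66.7, 51.03 and 40.7 CPM, against 7.81 to 16.2 CPM elsewhere. Pantr1, 2321 bp from the POU factor gene Pou3f3, was at 28.96, 30.7 and 24.05 CPM in Mx at E11.5 and at 5.36 to 10.8 CPM elsewhere. The F test across the 4 stage changes had an adjusted p of 1.1e-10 for Fendrr, 9.8e-11 for Emx2os and 2.8e-08 for Pantr1.

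Miat was highest in Mx among the E10.5 WT subpopulations. At E10.5 it was at 42.1 and 37.6 CPM in Mx, against 3.90 to 6.82 CPM in the other subpopulations (log2 fold change of 2.95 ± 0.20, adjusted p = 3.3e-15). The 12 neuron and glia markers, all of them detected in these groups, summed to 337 to 396 CPM in Mx and to 24.6 to 40.2 CPM in FNP, Md and PA2 at E10.5. Their part in the result was not tested.

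**Figure D3:**
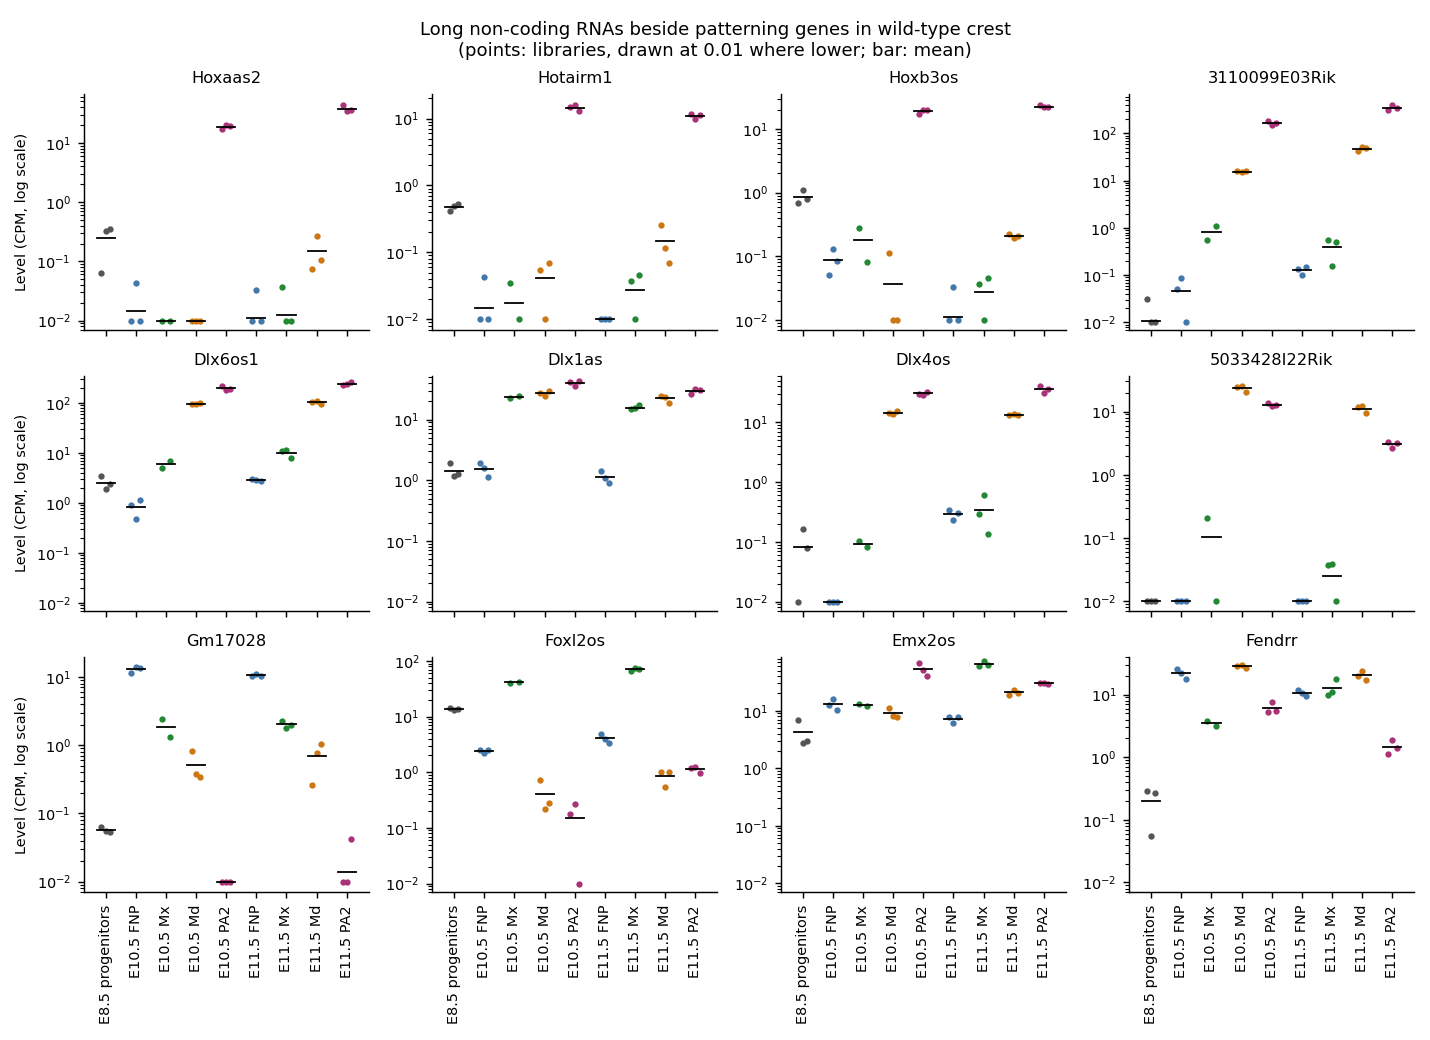
Level (CPM, log axis) of 12 members beside patterning genes in WT crest by stage and subpopulation; points are libraries, drawn at 0.01 where lower, and bars are group means. Hoxaas2, Hotairm1 and Hoxb3os are highest in PA2 at both stages and far lower elsewhere, Foxl2os peaks in Mx, Gm17028 in FNP and 5033428I22Rik in Md.

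In Ezh2cKO crest, RNAs of the Hox clusters were detected in all 4 subpopulations, while Dlx1as and Dlx6os1 were lower in the arches where they are normally high. Averaged over the subpopulations, 101 of 368 open members were called, 56 higher and 45 lower (27.4%), close to the 28.5% of all genes (3464 higher and 2409 lower). Taken singly, 37 of 379 were called in FNP (9.76%, against 6.38% of all genes), 37 of 384 in Mx (9.64%, against 9.64%), 26 of 385 in Md (6.75%, against 8.59%) and 33 of 381 in PA2 (8.66%, against 8.79%). Without the Mx WT library of replicate 2, the share called in Mx was 5.73%. Without the members that overlap a coding gene FNP had 21.84% called, Mx 17.44%, Md 13.79% and PA2 14.94%, and when each fit held its own groups alone the shares were 11.55% in Md (against 13.8% of all genes) and 18.57% in PA2 (against 16.6%). Of the 12 listed RNAs beside developmental regulators, 9 were higher and 1 lower in the average, 6 higher and none lower in FNP, 8 higher and 1 lower in Mx, 5 higher and 2 lower in Md, and 3 higher and 2 lower in PA2, where the call of Six3os1 was lost without any 1 of the 6 libraries (adjusted p = 0.051 to 0.13). Other calls among these 12 were lost in some fits without 1 library. They were those of Dlx6os1 in the average (adjusted p = 0.051 to 0.17), Foxd2os in FNP (0.079 to 0.22), and Fendrr (0.052 to 0.2) and Foxd2os (0.051 to 0.11) in Mx. The averaged call of Dlx6os1 was also lost with chromosome M in the totals (0.053). Of the 4 listed microRNA hosts, 1 was higher in the average. The averaged contrast reuses the libraries of the single ones.

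Gm11538 (chr11:96203454-96205480, plus strand) lies 6007 bp from Hoxb13, the most posterior gene of its cluster. It had counts in all 12 Ezh2cKO libraries, at 7.98 to 30.3 CPM with a median of 21.8 (4794 counts), against 8 counts in 3 of the 35 other libraries. In FNP it was at 30.3, 28 and 17.9 CPM in Ezh2cKO, against 0.103, 0.218 and 0.0417 CPM in WT. In the other subpopulations no WT library had a count, and Ezh2cKO was at least 227-fold higher in Mx, 411-fold in Md and 340-fold in PA2 against a floor of 3 counts over the WT group. Gm11538 is a member through these knockout groups alone, so no test is given. Its r with Hoxb13 over the 16 groups was 0.99; Hoxb13 itself was at 0.60 to 2.71 CPM in the knockout groups and at 0 in the E10.5 WT groups.

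Hoxb3os, the PA2 RNA, was at 22.3, 24.6 and 18.7 CPM in FNP Ezh2cKO, against 0.0513, 0.131 and 0.0834 CPM in FNP WT (log2 fold change of 7.84 ± 0.35, adjusted p = 4.5e-20). The same held in Mx, with 15.2, 17.3 and 11.8 CPM in Ezh2cKO and 0.277 and 0.0816 CPM in WT, and in Md, with 17.2, 17.3 and 14.4 CPM in Ezh2cKO and 0.111, 0 and 0 CPM in WT. FNP Ezh2cKO thus reached the level of WT PA2, and Mx and Md Ezh2cKO lay just below it. In PA2, where it is already expressed, it was at 38.9, 38.7 and 40.3 CPM in Ezh2cKO and 17.4, 19.8 and 19.6 CPM in WT (log2 fold change of 1.05 ± 0.18, adjusted p = 6.9e-05). Where exons overlap, its reads cannot be told apart from those of Hoxb2 and Hoxb3. Hoxb3 averaged 10.8 CPM in FNP Ezh2cKO and 0.0423 CPM in FNP WT, and 20.6 and 4.51 CPM in PA2. Hoxb2 averaged 2.32 CPM in FNP Ezh2cKO and 0 CPM in FNP WT, and 6.41 and 8.01 CPM in PA2.

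The Hoxa RNAs stayed well below their PA2 level. Hotairm1 was at 2.57, 2.07 and 2.07 CPM in FNP Ezh2cKO, against 0, 0.0436 and 0 CPM in FNP WT (log2 fold change of 6.79 ± 0.47, adjusted p = 9.7e-14). In Md it was at 2.89, 2.66 and 2.22 CPM in Ezh2cKO, against 0.0555, 0 and 0.0691 CPM in WT (log2 fold change of 5.87 ± 0.43, adjusted p = 7.5e-13). Hoxaas2 was at 0.0997 to 1.18 CPM over FNP, Mx and Md of Ezh2cKO, against at most 0.0436 CPM in the matching WT libraries. In PA2 Hoxaas2 was at 13.6, 13.6 and 14.2 CPM in Ezh2cKO and 17.1, 19.8 and 18.9 CPM in WT. The Ezh2cKO effect differed between subpopulations for 21 of 385 members (5.45%, where an F test across the 4 effects called 1.64% of all genes), with adjusted p-values of 1.9e-16 for Hoxb3os and 2.1e-15 for Hotairm1. The 385 include members that reached 10 CPM through the compared groups alone, so the shares describe unlike sets.

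RNAs of the Dlx clusters changed in different directions in different subpopulations. In PA2, Dlx6os1 was at 119, 118 and 105 CPM in Ezh2cKO, against 219, 181 and 189.6 CPM in WT (log2 fold change of −0.78 ± 0.14, adjusted p = 0.00014), and in Md at 54.5, 51.5 and 67.2 CPM in Ezh2cKO, against 93.3, 92.8 and 99.1 CPM in WT (log2 fold change of −0.72 ± 0.15, adjusted p = 0.00052). In Mx it was at 15.8, 15.9 and 11.6 CPM in Ezh2cKO, against 4.95 and 7.01 CPM in WT (log2 fold change of 1.27 ± 0.19, adjusted p = 7.6e-06). Dlx6os1 thus fell where it was high and rose where it was low, and the F test of a difference between the effects had an adjusted p of 1.2e-08. Dlx4os rose in Mx, with 0.765, 1.39 and 0.848 CPM in Ezh2cKO and 0.104 and 0.0816 CPM in WT (log2 fold change of 3.33 ± 0.54, adjusted p = 2.9e-05), and was at 24.5, 25 and 26.04 CPM in Ezh2cKO PA2 and 30.2, 29.3 and 32.3 CPM in WT PA2, without overlap and not called. Dlx1as fell in Mx, Md and PA2: in PA2 it was at 22.96, 22.1 and 25.99 CPM in Ezh2cKO, against 42.1, 36.5 and 44.1 CPM in WT (log2 fold change of −0.79 ± 0.14, adjusted p = 0.0001). Beside Hand2, 5033428I22Rik was at 13.2, 12.2 and 14.3 CPM in Md Ezh2cKO, against 24.1, 25.2 and 20.3 CPM in Md WT (log2 fold change of −0.81 ± 0.19, adjusted p = 0.0037). The Meis2-side RNA 3110099E03Rik was at 63.6, 62 and 67.3 CPM in PA2 Ezh2cKO, against 179, 151 and 166 CPM in PA2 WT (log2 fold change of −1.36 ± 0.16, adjusted p = 2.1e-08). Fendrr rose in PA2, with 15.1, 15.5 and 18.7 CPM in Ezh2cKO and 5.26, 7.66 and 5.50 CPM in WT (log2 fold change of 1.42 ± 0.21, adjusted p = 4.5e-06).

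Other members rose in Ezh2cKO across subpopulations. Miat was at 48.3, 50.1 and 33.03 CPM in PA2 Ezh2cKO, against 3.90, 4.76 and 5.05 CPM in PA2 WT (log2 fold change of 3.26 ± 0.26, adjusted p = 6.8e-12), and in Md at 51.2, 40.1 and 30.6 CPM in Ezh2cKO, against 5.94, 5.31 and 5.60 CPM in WT. In PA2 the 12 neuron and glia markers summed to 50.7 to 53.5 CPM in Ezh2cKO and to 31.7 to 35.1 CPM in WT, and in Mx to 208 to 565 CPM in Ezh2cKO and to 337 to 396 CPM in WT; their part in the result was not tested. 2610307P16Rik, which holds the miR-6368 hairpin, averaged 39.7 ± 8.86 CPM (SD, n = 12) over the Ezh2cKO libraries and 21.9 ± 5.07 CPM (SD, n = 11) over the WT libraries (log2 fold change of 0.91 ± 0.09, adjusted p = 3.1e-10). Igf2os rose in the average (log2 fold change of 0.72 ± 0.07, adjusted p = 2.6e-11), and in Mx it was at 13.8, 13.6 and 16.3 CPM in Ezh2cKO, against 6.78 and 5.38 CPM in WT. Lower members were Gdap10, inside Nampt, at 38.6 ± 4.61 CPM (SD, n = 12) in Ezh2cKO and 57.8 ± 5.88 CPM (SD, n = 11) in WT (log2 fold change of −0.58 ± 0.08, adjusted p = 1.5e-07), and Gm26625, at 49 ± 9.17 CPM (SD, n = 12) in Ezh2cKO and 74.2 ± 15.7 CPM (SD, n = 11) in WT (log2 fold change of −0.61 ± 0.09, adjusted p = 5.2e-07). Gm26625 overlaps Ezh2 itself on the other strand, with 6.86% of its exonic bases in coding exons, so its reads cannot be told apart from those of the targeted gene there.

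**Figure D4:**
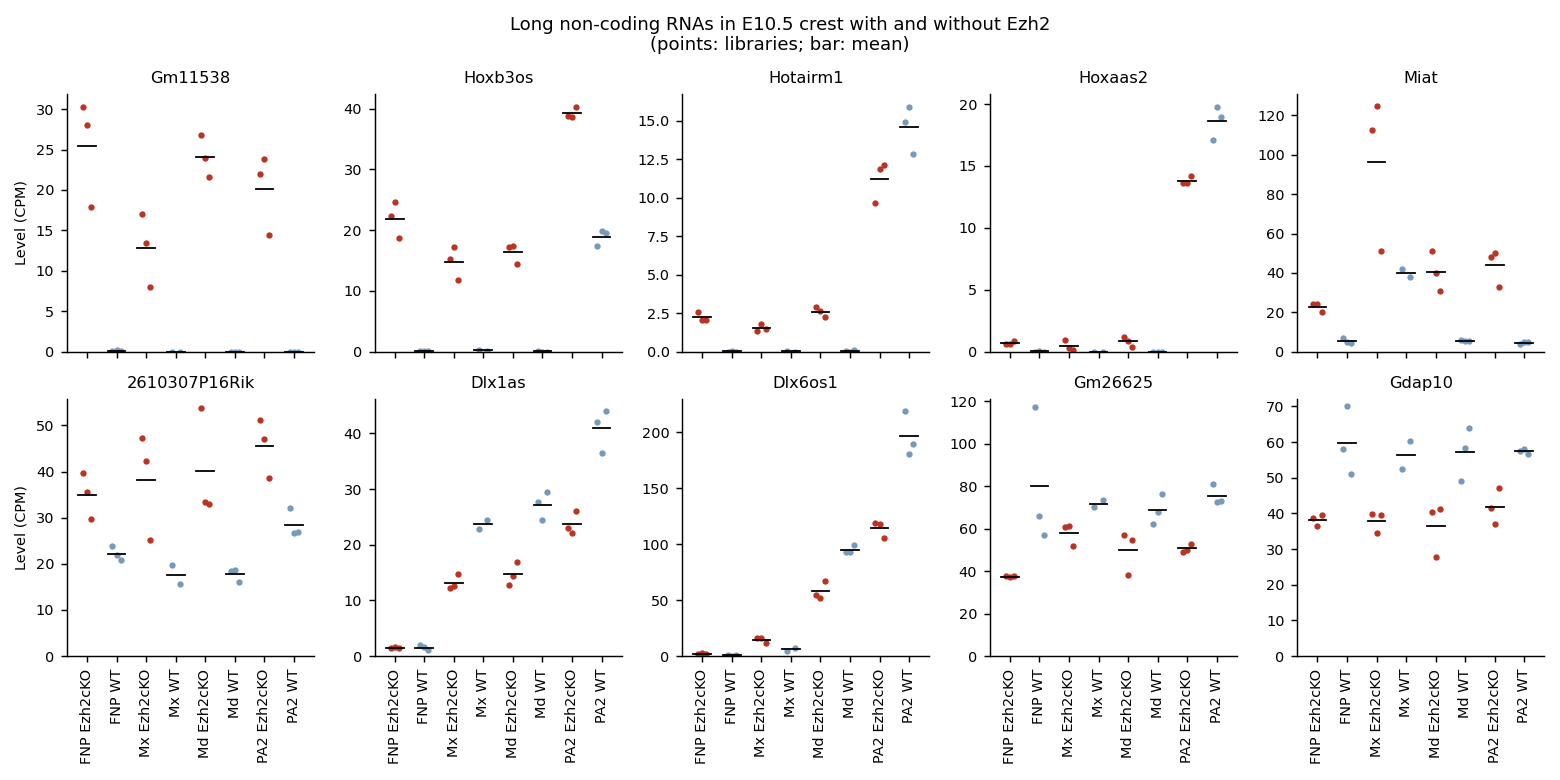
Level (CPM, linear axes from 0) of 10 members in E10.5 crest, with Ezh2cKO (red) left of WT (blue) in each subpopulation; points are libraries and bars are group means. Gm11538 is at 7.98 to 30.3 CPM in Ezh2cKO and near 0 in WT everywhere, Hoxb3os rises in each subpopulation, and Dlx1as and Dlx6os1 are lower in Ezh2cKO Md and PA2.

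Most members differed between HoxA2OE and WT in Md, in libraries that stood apart. Of 384 open members, 255 were called (66.4%, against 55.1% of all genes), 97 higher and 158 lower, with a median log2 fold change of −0.22 where all genes had −0.04. The nuclear RNA Malat1 was at 3046, 3235 and 2230.3 CPM in HoxA2OE, against 4604, 5084 and 5933 CPM in Md WT (log2 fold change of −0.88 ± 0.16, adjusted p = 1.6e-05). Without scaling factors the median over the open members shifted by −0.39, so the directions of modest changes here depend on the scaling. The summed erythroid markers were at 14.1 to 18.6 CPM in HoxA2OE and 294 to 380.1 CPM in Md WT; their part in the results was not tested.

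The clearest positional change was that of 3110099E03Rik, at 124, 69.96 and 96.8 CPM in HoxA2OE, against 16.2, 14.95 and 15.7 CPM in Md WT (log2 fold change of 2.63 ± 0.17, adjusted p = 2.4e-15). Its level lay between those of Md and PA2 in WT. Dlx6os1 was at 248, 204 and 196 CPM in HoxA2OE, against 93.3, 92.8 and 99.1 CPM in Md WT (log2 fold change of 1.18 ± 0.14, adjusted p = 9.7e-09), within or above the PA2 range. The coding genes beside it went the other way: Dlx6 averaged 26.7 CPM in HoxA2OE and 39.3 CPM in Md WT (log2 fold change of −0.56 ± 0.15, adjusted p = 0.0019), and Dlx5 144 CPM in HoxA2OE and 197 CPM in Md WT (log2 fold change of −0.46 ± 0.14, adjusted p = 0.007). Hoxb3os was at 1.60, 0.932 and 0.481 CPM in HoxA2OE, against 0.111, 0 and 0 CPM in Md WT, well under its PA2 level. Hoxaas2, which lies in the Hoxa cluster itself, had no count in any of these HoxA2OE or Md WT libraries. Gm26771, overlapping the secreted Wnt modulator gene Sfrp2, was at 131, 31.8 and 29.98 CPM in HoxA2OE, of which 1 library was far above the others, and at 12.8, 11.3 and 16.2 CPM in Md WT (log2 fold change of 2.25 ± 0.33, adjusted p = 2.9e-07).

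Hosts of small RNAs changed in both directions in HoxA2OE. Mir17hg was at 298, 237 and 272 CPM in HoxA2OE, against 77.7, 102 and 88.4 CPM in Md WT (log2 fold change of 1.59 ± 0.21, adjusted p = 4.8e-08), and the list of 4 microRNA hosts had 2 higher and 2 lower. The other higher host, Dnm3os, was called (log2 fold change of 0.39 ± 0.16, adjusted p = 0.041) but not without scaling factors (adjusted p = 0.99), with chromosome M in the totals (0.065), when the fit held its own groups alone (0.21) or without Md WT replicate 1 (0.23) or 2 (0.19) or HoxA2OE replicate 3 (0.33). Snhg12 was at 89.6, 52.3 and 54.6 CPM in HoxA2OE, against 28.9, 30.9 and 36.6 CPM in Md WT (log2 fold change of 1.02 ± 0.14, adjusted p = 1.5e-07). Of the 4 small nucleolar RNA hosts, 2 were higher and 1 lower. Tug1 was at 1123, 1058 and 969.6 CPM in HoxA2OE, against 469, 429 and 478 CPM in Md WT (log2 fold change of 1.19 ± 0.09, adjusted p = 5.6e-13). Miat was at 0.743, 1.01 and 1.24 CPM in HoxA2OE, against 5.94, 5.31 and 5.60 CPM in Md WT (log2 fold change of −2.45 ± 0.34, adjusted p = 9.7e-08). Members that overlap a coding gene without sharing exons were among those that fell: 4930412M03Rik, inside Rai1, was at 1.14, 3.28 and 2.65 CPM in HoxA2OE, against 15.8, 18.97 and 19.7 CPM in Md WT (log2 fold change of −2.89 ± 0.27, adjusted p = 2e-11), and 9230105E05Rik, inside Hmga2, at 2.34, 4.10 and 3.09 CPM in HoxA2OE, against 20.6, 25.5 and 23.2 CPM in Md WT (log2 fold change of −2.84 ± 0.22, adjusted p = 4.1e-13).

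Few members differed between Hoxa2TempMut and Control in PA2. In Hoxa2TempMut 3 of 382 open members were called against Control (0.785%, where 0.617% of all genes were called), each of them lower in Hoxa2TempMut. When the fit held its own groups alone the share was 3.723%, against 1.37% of all genes, and without members that overlap a coding gene it was 3.488%. 3110099E03Rik was at 157, 138 and 156 CPM in Hoxa2TempMut, against 299.8, 259 and 273 CPM in Control (log2 fold change of −0.88 ± 0.15, adjusted p = 0.00049), and at 317, 397 and 349 CPM in PA2 WT. Gm20554 (chr13:72617920-72628564, minus strand), 256 bp from the Iroquois gene Irx2 with an r of 0.91, was at 7.44, 8.55 and 8.19 CPM in Hoxa2TempMut, against 12.1, 15.6 and 17.5 CPM in Control (log2 fold change of −0.90 ± 0.17, adjusted p = 0.0024), and at 14.8, 15.4 and 16.7 CPM in PA2 WT. For both, no Hoxa2TempMut library reached the Control range. G630016G05Rik (chr2:116067225-116085911, plus strand), divergent from Meis2 at 1386 bp, was at 9.27, 5.72 and 6.62 CPM in Hoxa2TempMut, against 13.2, 15.1 and 11.04 CPM in Control (log2 fold change of −0.86 ± 0.20, adjusted p = 0.026). Its call was lost without Control replicate 1 (adjusted p = 0.067), Control replicate 2 (0.2), Hoxa2TempMut replicate 2 (0.25) or Hoxa2TempMut replicate 3 (0.15).

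Meis2 and Irx2, the coding genes nearest to G630016G05Rik and Gm20554, were also lower. Meis2 averaged 898 CPM in Hoxa2TempMut and 1359.5 CPM in Control (log2 fold change of −0.60 ± 0.10, adjusted p = 0.00036), and Irx2 24.6 CPM in Hoxa2TempMut and 38.5 CPM in Control (log2 fold change of −0.64 ± 0.14, adjusted p = 0.017). BC052040, the coding gene nearest to 3110099E03Rik, averaged 39.6 CPM in Hoxa2TempMut and 45.4 CPM in Control and was not called (log2 fold change of −0.20 ± 0.18, adjusted p = 1). In HoxA2OE, Meis2 averaged 779 CPM, against 440.1 CPM in Md WT (log2 fold change of 0.82 ± 0.10, adjusted p = 1.2e-08), and Irx2 15.5 CPM, against 1.28 CPM in Md WT (log2 fold change of 3.57 ± 0.20, adjusted p = 6.8e-17). Hoxaas2 was at 93.4, 88.5 and 89.95 CPM in Hoxa2TempMut and 80.1, 77.5 and 86.5 CPM in Control, and Hotairm1 at 15.9, 15.3 and 14.6 CPM in Hoxa2TempMut and 20.1, 19.7 and 19.4 CPM in Control; neither was called. Gm16141, beside Meis1, was at 8.14, 8.59 and 7.43 CPM in Hoxa2TempMut and 10.9, 9.54 and 9.41 CPM in Control, without overlap and not called.

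**Figure D5:**
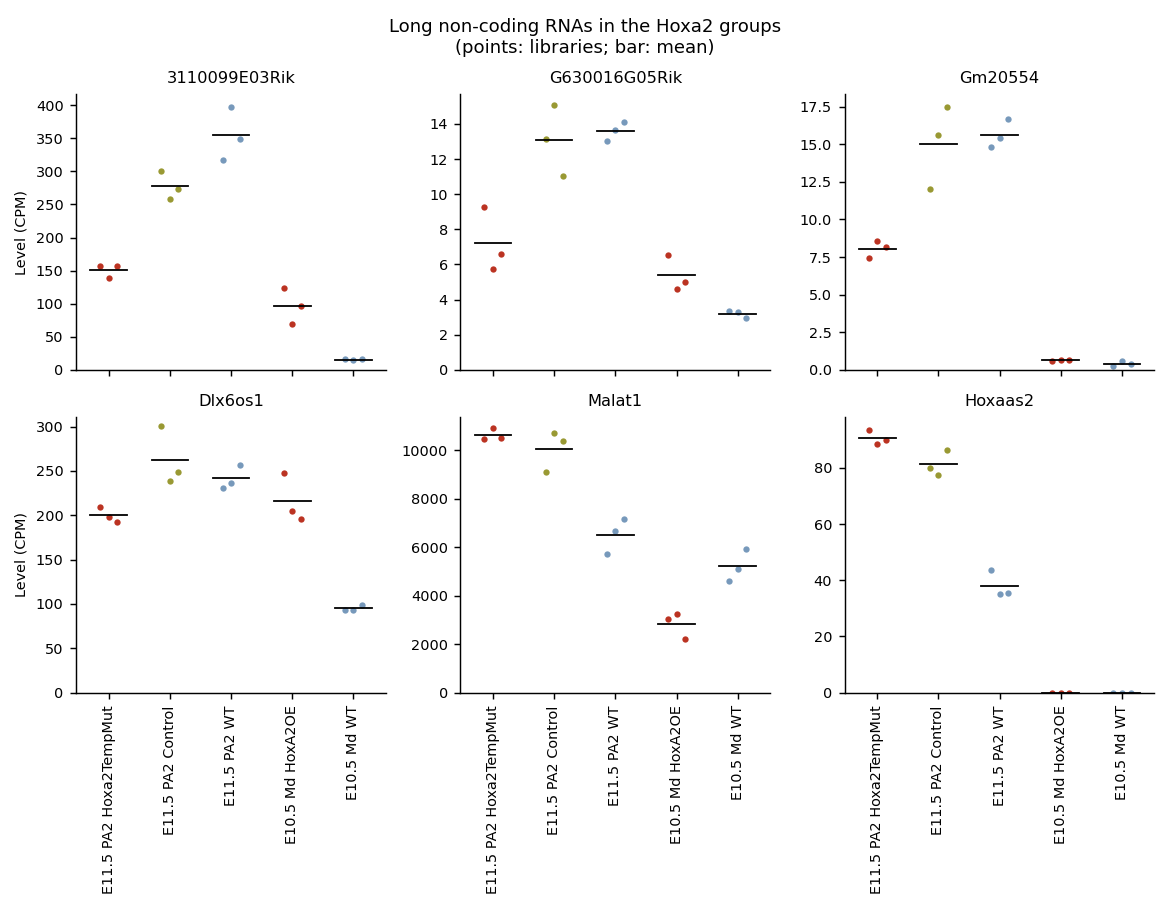
Level (CPM, linear axes from 0) of 6 members in E11.5 PA2 of Hoxa2TempMut, Control and WT and in E10.5 Md of HoxA2OE and WT; points are libraries and bars are group means. 3110099E03Rik, G630016G05Rik and Gm20554 are lower in Hoxa2TempMut than in Control, 3110099E03Rik and Dlx6os1 are higher in HoxA2OE than in Md WT, and Malat1 and Hoxaas2 are higher in Control than in PA2 WT.

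The Control group itself differed from PA2 WT of the same stage. Of 381 open members, 106 were called (27.8%, against 21.8% of all genes), 79 higher and 27 lower in Control. Of all genes, 2105 were called higher and 2394 lower. When the fit held its own groups alone the share was 42.18%, against 35.1% of all genes. The same Control libraries serve in the comparison with Hoxa2TempMut. Malat1 was at 9101, 10721 and 10381 CPM in Control, against 5718, 6660.2 and 7169 CPM in PA2 WT (log2 fold change of 0.63 ± 0.16, adjusted p = 0.0036), and at 10448, 10937 and 10506 CPM in Hoxa2TempMut. Dnm3os was at 627, 560.05 and 578 CPM in Control, against 229.5, 244 and 293 CPM in PA2 WT (log2 fold change of 1.20 ± 0.17, adjusted p = 7.9e-07). The precursor of miR-125b, 3110039I08Rik, was at 1112, 1285 and 1272 CPM in Control, against 739, 745 and 797 CPM in PA2 WT (log2 fold change of 0.69 ± 0.16, adjusted p = 0.0015). Carmn, listed as a microRNA host under the name Mir143hg and known from smooth muscle, was at 14.1, 14.4 and 10.9 CPM in Control, against 3.77, 4.18 and 4.91 CPM in PA2 WT (log2 fold change of 1.61 ± 0.23, adjusted p = 1.6e-06). Thus 3 of 4 microRNA hosts and 3 of 4 abundant nuclear RNAs (Malat1, Tug1 and Pvt1) were higher in Control and none was lower. The call of Pvt1 was lost without PA2 WT replicate 2 (adjusted p = 0.088) or 3 (0.078) or Control replicate 1 (0.12) or 3 (0.081). That of Tug1 was lost without PA2 WT replicate 1 (0.056). Hoxaas2 was at 80.1, 77.5 and 86.5 CPM in Control, against 43.5, 35.1 and 35.5 CPM in PA2 WT (log2 fold change of 1.10 ± 0.19, adjusted p = 3.6e-05), and Gm8327 at 16.9, 16.2 and 15.2 CPM in Control, against 5.56, 4.38 and 6.79 CPM in PA2 WT (log2 fold change of 1.53 ± 0.19, adjusted p = 1.4e-07). Among the lower members 2410006H16Rik was at 16.3, 15.3 and 11.1 CPM in Control, against 44.05, 46.1 and 39.8 CPM in PA2 WT (log2 fold change of −1.61 ± 0.23, adjusted p = 2e-06). The 9 muscle and cranial mesoderm markers summed to 40.1 to 68.9 CPM in Control and 8.59 to 18.9 CPM in PA2 WT, and the 10 leukocyte markers to 17.9 to 23.03 CPM in Control and 9.94 to 12.2 CPM in PA2 WT. No muscle marker was at 0 in either group, and their part in the results was not tested. The labels give no feature that separates Control from WT, so genotype and any difference in handling cannot be told apart.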

How the data were processed

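Total RNA of sorted cranial neural crest cells was made into unstranded ScriptSeq libraries, pooled by 3 and read as single ends of 50 bases, per the labels' protocols. The authors deposited 1 table of whole-number read counts for 38215 genes; bcl2fastq 2.17 and the builds GRCm38 and mm10 are named in the submitters' processing notes, and the sources used here name no aligner, counter, strand setting or annotation. Repeated column names (22) held identical values and were read once. Members and gene lists were chosen with earlier results of these data known.

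One edgeR 4.0.16 quasi-likelihood model (R 4.3.3, limma 3.58.1) held 16 group means over 47 libraries, with library totals without chromosome M genes, TMM scaling factors and the edgeR expression filter (minimum count 10, minimum total 15; 20594 genes). Benjamini-Hochberg adjustment ran over all genes tested in each comparison, and calls were made at an adjusted p under 0.05. DESeq2 1.42.0 was an alternative. The steps were tested on simulated data. A member was open to a test when it reached 10 CPM in a group outside the comparison or on both of its sides. Named were up to 5 higher and 5 lower members per comparison of largest fold change among those open, called, at 10 CPM or more on the higher side and without overlap of libraries, up to 5 with no test, the extremes of spread and level, and the members of lists of small nucleolar RNA hosts, abundant nuclear RNAs, microRNA hosts, RNAs beside developmental regulators and p53-linked RNAs. For comparisons averaged over subpopulations, the same direction in each subpopulation replaced the lack of overlap. Log2 values for SDs and correlations used a pseudocount of 0.1 CPM. Symbols and exons come from GENCODE M21, sequences from RefSeq. Same-numbered libraries of different groups did not deviate together (correlations of −0.0859 to 0.11), so numbers were not used as pairs. Library totals limit precision: 3 counts, the floor used for values of 0, are 0.0283 to 0.0590 CPM over a group.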

Additional observations from a re-analysis of the deposited data

Results flagged for a closer look

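For 27 results on named members, the size of a change differed between the 4 subpopulations by an F test across their effects (edgeR's quasi-likelihood test, Benjamini-Hochberg adjusted over all genes tested). In 15 of them the effect of Ezh2cKO differed. The adjusted p was 1.9e-16 for Hoxb3os, 2.1e-15 for Hotairm1 and 2.4e-07 for Hoxaas2, the RNAs of the Hox clusters, which were near 0 in WT outside PA2. It was 1.2e-08 for Dlx6os1, which rose in Mx and fell in Md and PA2, and 1.9e-06 for Dlx4os, which was at 0.765 to 1.39 CPM in Mx Ezh2cKO, against 0.104 and 0.0816 CPM in Mx WT. For the other RNAs beside regulators the adjusted p was 9.2e-05 for Foxl2os, 0.0023 for Fendrr, 0.0036 for Pantr1, 0.012 for 5033428I22Rik and 0.015 for Six3os1. Foxl2os was at 11.2, 10.2 and 8.44 CPM in FNP Ezh2cKO, against 2.56, 2.18 and 2.50 CPM in FNP WT, and at 38.3, 46.4 and 50.5 CPM in Mx Ezh2cKO, against 40 and 42.7 CPM in Mx WT. It was 0.0011 for Miat, 0.019 for Gm26778 with Kctd12, 0.024 for Igf2os, 2e-05 for 4933404O12Rik and 2.6e-05 for Gm26883, which lies almost wholly within coding exons of the Tshz2 locus.

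In the other 12 the change between E10.5 and E11.5 differed. The adjusted p was 9.8e-11 for Emx2os, 1.1e-10 for Fendrr and 2.8e-08 for Pantr1, whose order of subpopulations was not the same at both stages. It was 3.7e-09 for Miat, which was at 11.4, 18.7 and 22.7 CPM in Mx at E11.5, against 42.1 and 37.6 CPM in Mx at E10.5, while the 12 neuron and glia markers summed to 115.7 to 129 CPM and to 337 to 396 CPM in the same groups; their part was not tested. It was 5.7e-08 for Gm26778, 2.8e-05 for Foxd2os, 0.00026 for Dlx6os1, 0.00038 for 1700016P03Rik, 0.00039 for Dlx4os, 0.0091 for Hoxb3os, 0.036 for Snhg17 and 0.043 for Tbx3os1.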

How the results depend on the processing

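Every share of open members called kept within 1.5 times its value under DESeq2 size factors, the DESeq2 test, no expression filter, no scaling factor, totals with chromosome M and the replicate block, over 20 comparisons each. For the F tests among these the share was taken over all members, open or not. With the replicate block 0.785% of members were called in Hoxa2TempMut and 28.26% in averaged Ezh2cKO. With members that overlap a coding gene left out, the shares were 16.09% (Mx), 20.69% (Md) and 26.44% (PA2) at E10.5, 31.4% (Mx) and 16.47% (Md) at E11.5, for Ezh2cKO 21.84% (FNP), 17.44% (Mx), 13.79% (Md) and 14.94% (PA2), 3.488% for Hoxa2TempMut and 9.195% for the F test of the Ezh2cKO effect. Fitting only the groups compared gave 11.55% in Md and 18.57% in PA2 for Ezh2cKO, 3.723% for Hoxa2TempMut and 42.18% for Control; the F tests were not run in that way. For Hoxa2TempMut a threshold of 20 CPM gave 0.4808%, and the 121 open members with no exonic base inside a coding exon, an alternative chosen after seeing the data, gave 2.479%. Leaving out 1 library in turn gave 5.249% to 10.24% in Mx and 7.349% to 12.34% in Md at E10.5, 25.13% to 43.92% in FNP at E11.5 and 5.729% to 10.16% in Mx for Ezh2cKO. The cause was not tested. Of 317 log2 fold changes of named members none reversed; 2 lost their call without the filter, 6 without scaling factors, 7 of 312 in fits of only the groups compared, 2 with chromosome M in the totals, and 54 in at least 1 fit without a library. Without scaling factors the median over the open members shifted by 0.12 at E10.5 against E8.5 and by −0.39 in HoxA2OE. Reads shared with overlapping genes, unstranded counting and 2 to 3 libraries a group limit all values; counting floors cover counting error only.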
